A study of Mus musculus with 4 samples.

Results

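Mouse small intestinal (SI) organoids with added miR-181a-5p were examined for 8 chemokine genes that intestinal epithelium is known to express (Cxcl1, Cxcl2, Cxcl5, Cxcl16, Ccl20, Ccl25, Ccl28 and Cx3cl1) and 2 feedback genes of NF-κB signaling (Nfkbia and Tnfaip3). The 10 genes were chosen by name and are 10 of the 55487 genes listed in the deposited tables. SI organoids are epithelial cultures grown from isolated crypts, which hold stem cells and their differentiated progeny. One group of organoids was transduced with a lentivirus expressing a miRNA mimic control (replicates 1 and 2), and the other with a lentivirus expressing a miR-181a-5p mimic (replicates 3 and 4). Both groups were grown in the same organoid growth medium and under puromycin, which selects transduced cells, so all 4 libraries carry a viral insertion and the selection. The labels give neither the strain nor the age of the mice, and they do not state if replicates were transduced separately, so that p-values measure only the spread between these libraries.

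Chemokines are small secreted or membrane-anchored proteins that draw leukocytes through receptors on those cells. NF-κB, a dimer of Rel family proteins, is held in the cytoplasm by IκB proteins. After a TNF receptor, an IL-1 receptor or a Toll-like receptor is engaged, the IKK kinase complex marks IκB for degradation and NF-κB enters the nucleus. Among its targets are inflammatory chemokines and also Nfkbia, which encodes IκBα, and Tnfaip3, which encodes the ubiquitin-editing protein A20, and both of these products shut the pathway down again. Ccl25 and Ccl28 are by contrast produced by resting gut epithelium and guide lymphocytes to the mucosa.

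A miRNA lowers mRNAs that pair with its seed, bases 2 to 8, most often in the 3′ UTR. The mature sequence from RefSeq is shown with the seed in capitals, because it defines the sites sought in the 10 genes.
mmu-miR-181a-5p: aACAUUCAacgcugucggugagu
The DNA match to this seed is TGAATGT, extended by a final A in the 8mer form. None of the 10 genes held an 8mer, a match to bases 2 to 8, or the weaker match to bases 2 to 7 followed by A in its longest annotated 3′ UTR (GENCODE M21, GRCm38). These 3′ UTRs were between 505 bases (Ccl25) and 3293 bases (Ccl28) long, and their median over 20676 genes was 988 bases. Of those genes, 21.4% held at least 1 of the 3 forms and 16.7% held a match to bases 2 to 8. The absence says only that these letters are not in these 3′ UTRs.

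The promoter windows of the same genes were searched for the κB consensus, the motif that NF-κB binds, on both strands. RefSeq windows on GRCm38.p6, which run from 250 bases before to 50 bases after a start site, were at hand for 8 of the 10 genes (all except Cxcl5 and Cxcl16). A match was found in 5 of these 8 genes, Cxcl1, Cxcl2, Ccl20, Nfkbia and Tnfaip3, and in none of the windows of Ccl25, Ccl28 and Cx3cl1. Over all windows 4.51% held a match, and over all genes with a window 5.14%. Because the genes were listed as NF-κB feedback genes and chemokines, this count is not independent of how they were chosen. The matched stretches are shown in capitals within 30 bases of the gene's own strand, to show which bases matched in the genes counted. Of 21 further chemokine genes with a window, 4 held a match, among them Ccl27a, a relative of Ccl28.
Cxcl1, chr5:90891174-90891184, plus strand: ctgtactccGGGAATTTCCCtggcccggag
Cxcl2, chr5:90903802-90903812, plus strand: ctgagctcaGGGAATTTCCCtggtccccgg
Ccl20, chr1:83116686-83116695, plus strand: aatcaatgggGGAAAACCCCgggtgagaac
Nfkbia, chr12:55492667-55492676, minus strand: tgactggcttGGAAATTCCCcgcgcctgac
Tnfaip3, chr10:19015526-19015535, minus strand: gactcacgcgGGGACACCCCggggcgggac
Tnfaip3, chr10:19015413-19015422, minus strand: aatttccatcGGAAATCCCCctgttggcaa
Cxcl1 and Cxcl2, which lie near each other on chromosome 5, carried the same 11 bases, in which matches on both strands overlap.

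**Figure D1:**
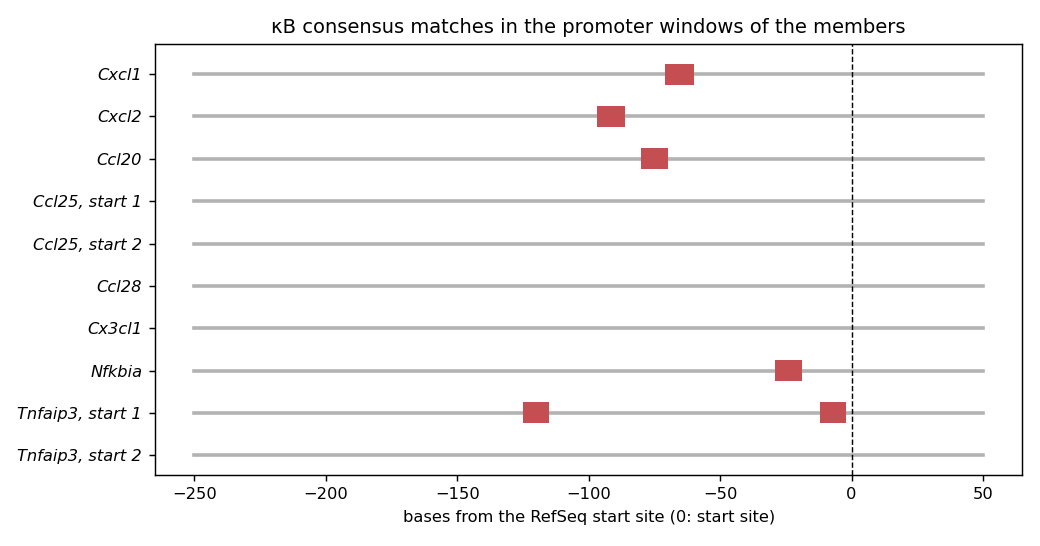
Positions of κB consensus matches (red, drawn to scale, overlapping matches merged) in the RefSeq promoter windows of 8 genes (grey lines, from 250 bases before to 50 bases after each start site), with the x axis in bases from the start site. Cxcl1, Cxcl2, Ccl20, Nfkbia and the first start of Tnfaip3 hold a match, all upstream of the start, and the windows of Ccl25, Ccl28 and Cx3cl1 hold none.

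The 4 libraries held between 31104884 and 38111731 expected counts, RSEM's estimate of the reads of each gene. Levels are given as TPM, which corrects for transcript length and so allows genes to be compared, and as normalized CPM, which are counts scaled to a common library size with TMM factors and serve to compare groups. The filter on low counts kept 17155 genes, among them 7 of the 10. It left out Cxcl1, Cxcl2 and Cxcl5. The counts of the libraries of 1 group differed far beyond sampling noise, at 30.8 (controls) and 16.7 (mimic) times the chi-square that noise alone gives, so they were not the same library deposited again. This does not show that they were prepared independently. Epithelial markers were high, with Krt19, a keratin of simple epithelia, at 624.12 and 693.92 TPM in the control libraries against 648.86 and 725.45 TPM in the mimic libraries. The summed level of 11 leukocyte markers was between 3.69 and 4.27 TPM, that of 8 mesenchymal markers between 0.5 and 0.72 TPM, and that of 5 endothelial markers between 0.16 and 0.43 TPM. Col1a2, Col3a1, Dcn and Lum of the mesenchymal list and Cdh5, Kdr and Emcn of the endothelial list were at 0 counts in every library.

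Among the chemokines, Ccl25 stood far above the rest. This ligand of the receptor Ccr9, which guides T cells to the small intestine, had 356.67 and 362.82 TPM in the control libraries against 302.26 and 304.27 TPM in the mimic libraries. Its mean level was at the 98.1 percentile of all tested genes, and it made up between 80.5% and 83.3% of the summed TPM of 38 chemokine ligand genes in each library. Ccl28, which recruits IgA-producing plasma cells through Ccr10, followed with 38.87 and 30.47 TPM in the control libraries against 22.13 and 28.18 TPM in the mimic libraries. Cx3cl1 and Cxcl16, the chemokines with a membrane anchor, had mean levels over the 4 libraries of 21.77 TPM and 6.142 TPM. The mean of Ccl20 was 2.285 TPM, and Cxcl1 stayed at or below 0.34 TPM. The 2 feedback genes lay within this order, Nfkbia at a mean of 27.14 TPM and Tnfaip3 at 7.112 TPM. In the order of these means Ccl28, Nfkbia and Cx3cl1 overlapped between libraries, and so did Tnfaip3 and Cxcl16, whereas Ccl25 and Ccl20 overlapped with neither neighbour. In both controls Cxcl16 was higher than Tnfaip3, and in both mimic libraries it was lower.

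**Figure D2:**
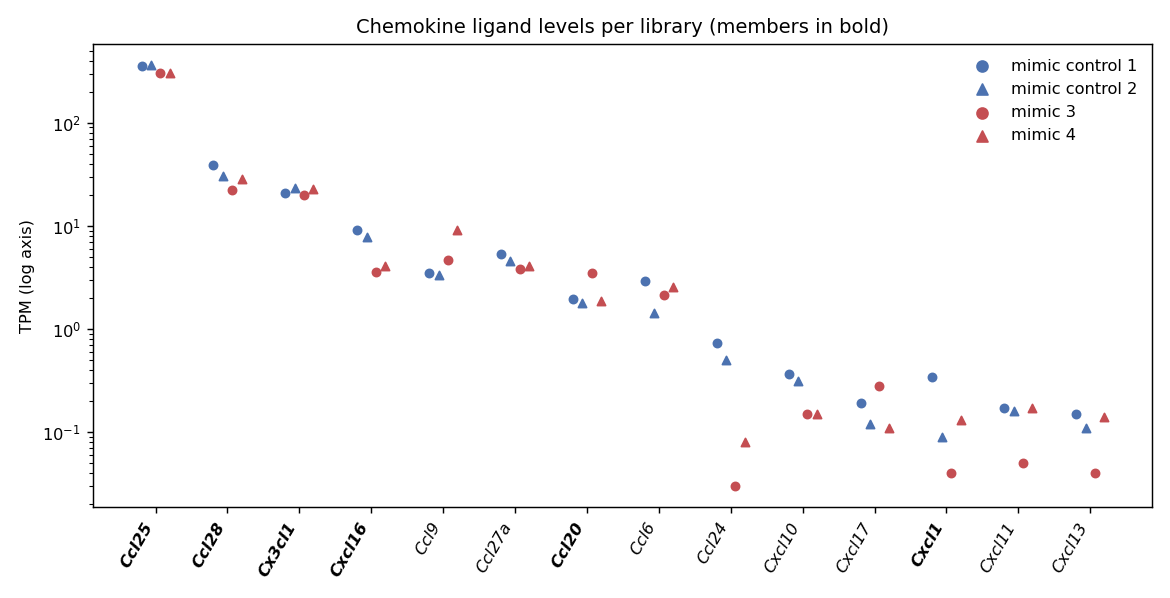
TPM (log axis) in each of the 4 libraries for the 14 chemokine ligand genes that reached 0.1 TPM in at least 1 library, ordered by mean level, with mimic control libraries in blue, miR-181a-5p mimic libraries in red and the genes examined here in bold. Ccl25 lies about an order of magnitude above Ccl28, and 24 further ligand genes stayed under 0.1 TPM.

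Ccl25 and Ccl28 were both lower with the mimic than in the controls, but neither difference passed the test. Ccl25 (ENSMUSG00000023235, chromosome 8 of GRCm38, 4325210 to 4360020) had 298.6 and 299.6 normalized CPM in the control libraries and 254.2 and 233.5 normalized CPM with the mimic. Both mimic libraries were below both controls, and the controls differed from each other by far less than the mimic libraries did. Its log2 fold change was -0.29 (standard error, SE, 0.10, 95% interval -0.52 to -0.07), with an adjusted p of 0.121 in edgeR's quasi-likelihood test. Ccl28 (ENSMUSG00000074715, chromosome 13, 119623819 to 119654359) had 111.4 and 87.7 normalized CPM in the control libraries against 65.07 and 75.45 in the mimic libraries. The groups did not overlap, though control replicate 1 was well above control replicate 2. The log2 fold change of Ccl28 was -0.50 (SE 0.14, 95% interval -0.83 to -0.18), with an adjusted p of 0.0882 in edgeR. The exact test and the likelihood-ratio test of edgeR and DESeq2 put Ccl28 past the threshold, at adjusted p-values of 0.0235, 0.0227 and 0.0318. These tests passed 10.4%, 10.9% and 7.71% of all tested genes, against 3.57% in the quasi-likelihood test. Ccl28 did not pass with no filter on low counts (adjusted p = 0.189 in edgeR) or in the TPM fits (0.232 to 0.411 with limma). Its log2 fold change was -0.33 without control replicate 1 and -0.66 without control replicate 2. In these bulk samples, fewer cells that make a chemokine and less RNA per cell cannot be told apart. An exon of Ccl25 overlaps Elavl1 on the other strand. Elavl1, an RNA-binding protein gene, had 111.9 and 121.5 normalized CPM in the control libraries against 145.7 and 136.5 in the mimic libraries, so its groups lay in the opposite order, and the strand setting of the counting is not given in the sources used here.

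Cxcl16 alone among the 7 tested genes passed the test, and it was lower with the mimic. It encodes a transmembrane chemokine that also acts as a scavenger receptor, and when shed it attracts cells bearing Cxcr6. Cxcl16 (ENSMUSG00000018920, chromosome 11, 70453983 to 70459984) had 15.75 and 13.62 normalized CPM in the control libraries against 6.29 and 6.601 in the mimic libraries. Each mimic library thus lay below the lower control by more than the controls differed from each other. In TPM the libraries had 9.03 and 7.87 in the control libraries against 3.59 and 4.08 in the mimic libraries. Its mean level was 14.69 ± 1.51 normalized CPM (SD, n = 2) with the control and 6.446 ± 0.22 with the mimic, thus 2.28-fold lower (95% interval 1.77 to 2.94), with a log2 fold change of -1.19 (SE 0.16) and an adjusted p of 0.0141 in edgeR. It also met a fold change of at least 2, as did 2.06% of all tested genes (1.47% lower and 0.589% higher). Whichever library was left out, the log2 fold change stayed between -1.29 and -1.09 and the adjusted p was at most 0.0291. On the TPM values with limma, the adjusted p was 0.0724 at a pseudocount of 1 and 0.0787 at 0.1. The counts of Cxcl16 were not whole numbers in any library, and an exon overlaps Zmynd15 on the other strand. Zmynd15 had 40.58 and 19.39 expected counts in the control libraries against 8.84 and 13.63 in the mimic libraries, against 604.42 and 421.61, and 197.16 and 235.37, for Cxcl16. The part of shared reads in the result was not tested.

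Cx3cl1 (ENSMUSG00000031778, chromosome 8, 94772009 to 94782427), the other transmembrane chemokine, which binds Cx3cr1 on mononuclear phagocytes, had 49.74 and 54.63 normalized CPM in the control libraries against 48.12 and 52.36 in the mimic libraries. The groups overlapped. Its log2 fold change was -0.05 with a 95% interval of -0.30 to 0.19 (adjusted p = 0.789 in edgeR). Adam10 and Adam17 encode the proteases that release both proteins from the membrane, and neither passed the test or had an unadjusted p under 0.05 in edgeR (0 also with DESeq2). Adam10 had 193.1 and 221.9 normalized CPM in the control libraries against 229.9 and 244.2 in the mimic libraries (log2 fold change 0.19, SE 0.11), and Adam17 had a log2 fold change of 0.06 (SE 0.10).

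The inflammatory chemokines were low or undetected in all libraries. Ccl20 (ENSMUSG00000026166, chromosome 1, 83116766 to 83119167), which attracts Ccr6-bearing lymphocytes and dendritic cells, had 46 and 32 counts in the control libraries against 67 and 37 in the mimic libraries. In normalized CPM these were 1.2 and 1.033 in the control libraries against 2.139 and 1.039 in the mimic libraries, so that mimic replicate 3 alone stood above the rest. Its log2 fold change was 0.48 (SE 0.40, 95% interval -0.44 to 1.41, adjusted p = 0.485 in edgeR), and without mimic replicate 3 it was -0.11. Cxcl1, a neutrophil attractant that binds Cxcr2, had 12 and 2 counts in the control libraries against 1 and 3 in the mimic libraries. Most of its counts thus came from control replicate 1. Cxcl2, a close relative with the same receptor, had 1 count in control replicate 1 and none in the other libraries. Cxcl5, also a Cxcr2 ligand, had 0 counts in all 4 libraries. A count of 0 allows up to 3 counts, which is at most 0.0968 CPM in a single library and covers counting error only. A decrease of Cxcl2 or Cxcl5 was therefore not detectable at this depth. With no filter on low counts, Cxcl1 was tested and had an adjusted p of 0.431 in edgeR.

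**Figure D3:**
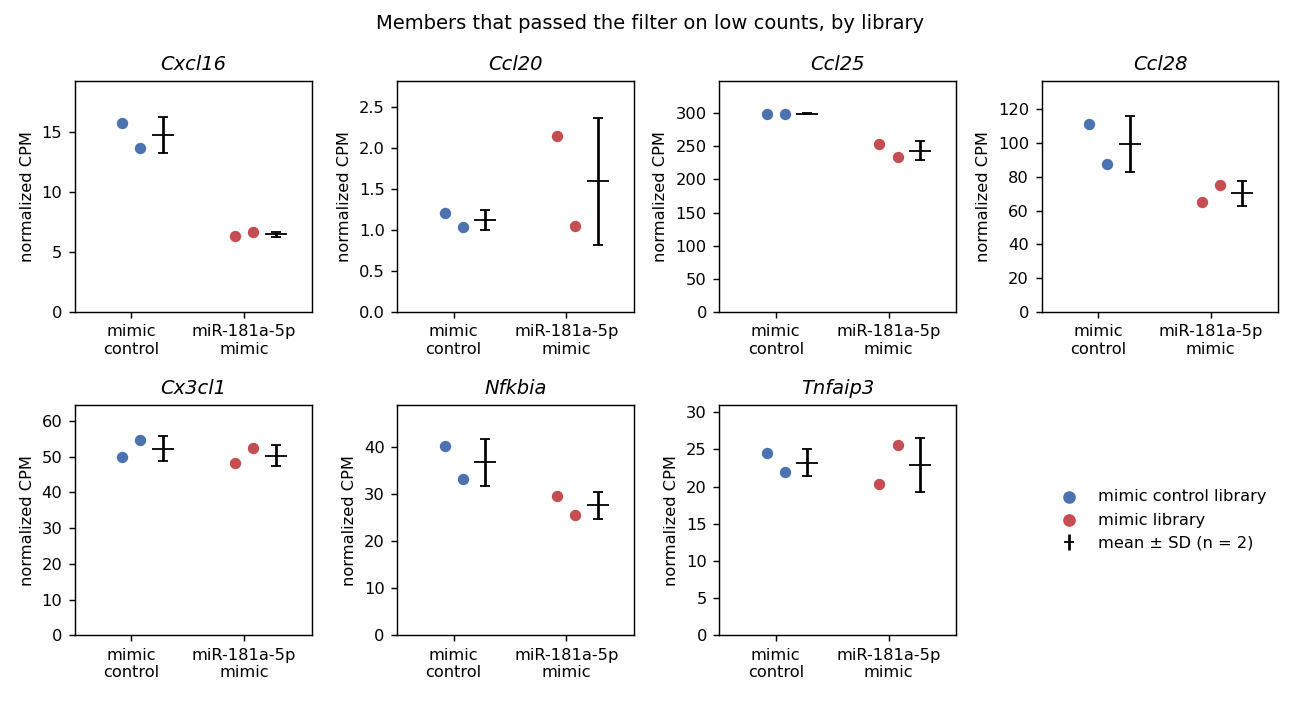
Normalized CPM by library for the 7 genes that passed the filter on low counts, with points for the 2 mimic control libraries (blue) and the 2 miR-181a-5p mimic libraries (red), and black bars for mean ± SD. The y axes start at 0 and differ between panels. The groups are widest apart for Cxcl16, and the libraries of Cx3cl1, Tnfaip3 and Ccl20 overlap.

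Neither of the 2 feedback genes passed the test, though the mimic libraries were both lower for Nfkbia and not for Tnfaip3. Nfkbia (ENSMUSG00000021025, chromosome 12, 55489410 to 55492647) had 40.19 and 33.14 normalized CPM in the control libraries against 29.6 and 25.53 in the mimic libraries. Both mimic libraries were below both controls. Its log2 fold change was -0.41 (SE 0.14, 95% interval -0.73 to -0.09), with an adjusted p of 0.127 in edgeR. With 1 library left out, the log2 fold change of Nfkbia lay between -0.54 and -0.27. Its adjusted p in edgeR was 0.0329 without control replicate 2, when 2326 genes passed in place of 612, and between 0.219 and 0.371 when any other library was left out. Tnfaip3 (ENSMUSG00000019850, chromosome 10, 19000910 to 19015657) had 24.49 and 21.97 normalized CPM in the control libraries against 20.4 and 25.53 in the mimic libraries. The mimic libraries lay on either side of the controls, and the log2 fold change was -0.02 (SE 0.15, 95% interval -0.36 to 0.32, adjusted p = 0.957 in edgeR), with its sign turned to 0.00 when libraries were scaled by their totals alone and to 0.08 on TPM values. The difference between Nfkbia and Tnfaip3 was not tested.

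Over the 10 genes, 1 of the 7 tested passed an adjusted p under 0.05, Cxcl16, against 3.57% of all tested genes in either direction with 2.29% lower and 1.28% higher. For 4 of the 7 (Cxcl16, Ccl25, Ccl28 and Nfkbia) both mimic libraries were below both controls, and for none were both above, where the groups did not overlap in 58.4% of all tested genes, 29.5% lower and 28.9% higher. The same 4 genes had an unadjusted p under 0.05, as did 24.8% of all tested genes (13% lower). The median log2 fold change of the 7 was -0.29, that of all tested genes -0.01. The 7 were those with enough counts and not all of the 10. The summed TPM of the 8 chemokines was 427.74 and 426.29 in the control libraries against 351.58 and 361.49 in the mimic libraries, a sum that is mostly Ccl25.

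Other chemokines and the receptors were rare. Of 30 further chemokine ligand genes 16 had no count in any library and 3 were tested. None of the 3 passed in edgeR's quasi-likelihood test, its exact and likelihood-ratio tests or DESeq2, and 1 had an unadjusted p under 0.05. Ccl9, a ligand of Ccr1, had 4.356 and 3.84 normalized CPM in the control libraries against 5.588 and 9.101 in the mimic libraries (log2 fold change 0.84, SE 0.26, adjusted p = 0.113 in edgeR), its highest value being in mimic replicate 4. Ccl27a, the relative of Ccl28 that shares its receptor, had a log2 fold change of -0.44 (SE 0.26), and Ccl6 one of -0.01 (SE 0.36). Of 22 chemokine receptor genes 3 were tested, none passed in these 4 tests, and 1 had an unadjusted p under 0.05. For both lists, the share of all tested genes at that unadjusted level was 24.8%. Cxcr6, the receptor of Cxcl16, had 57 and 38 counts in the control libraries against 24 and 22 in the mimic libraries, a log2 fold change of -0.98 (SE 0.33) with an adjusted p of 0.128 in edgeR. Ccr9, the receptor of Ccl25, and Ackr4, a decoy receptor that takes up Ccl25, had log2 fold changes of -0.45 (SE 0.41) and -0.06 (SE 0.31). Cx3cr1 had at most 1 count in a library.

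**Figure D4:**
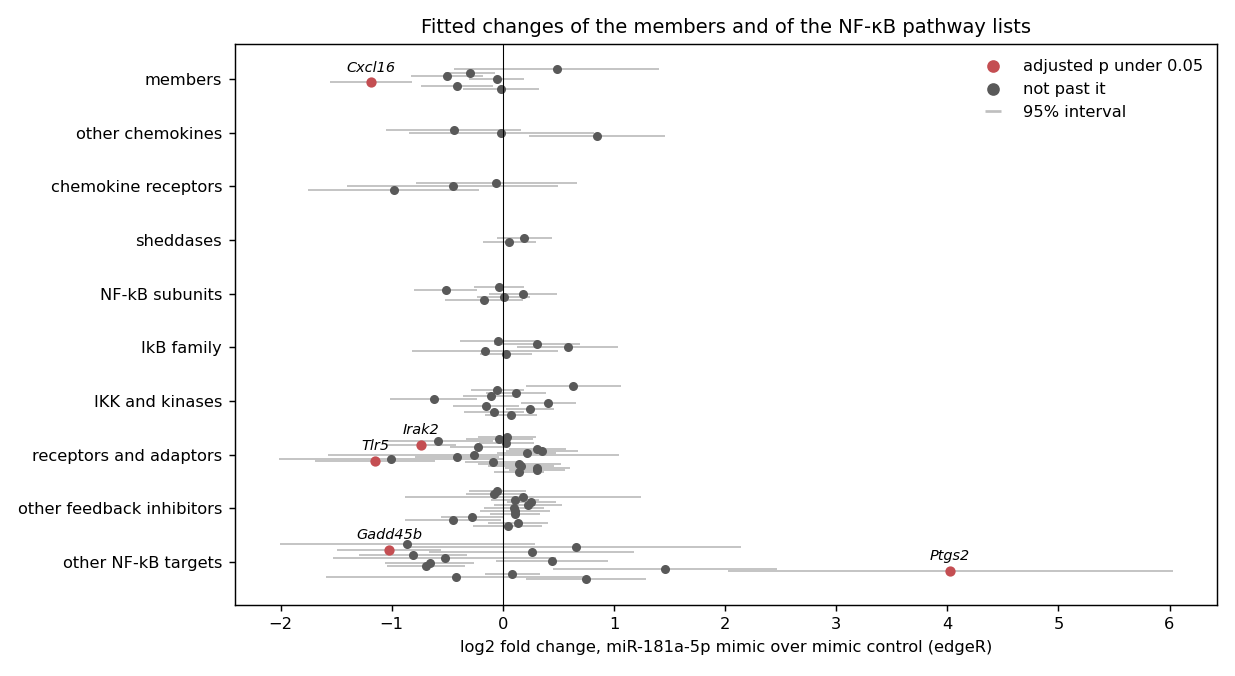
Log2 fold change of the miR-181a-5p mimic over the mimic control from edgeR (x axis) for every tested gene of the 10 genes examined (top row, labelled members) and of 9 lists of chemokine and NF-κB pathway genes, with grey lines for 95% intervals and red points for an adjusted p under 0.05. Cxcl16, Tlr5, Irak2 and Gadd45b lie below 0 and Ptgs2 far above it with a wide interval, while most other genes lie near 0.

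The core of the NF-κB pathway was expressed. None of the 5 Rel family genes passed in edgeR's quasi-likelihood test. Only Nfkb2 had an unadjusted p under 0.05, and 1 passed with the exact test, the likelihood-ratio test and DESeq2. Nfkb2, which encodes the p100 precursor and is named for this value, had 39.64 and 34.49 normalized CPM in the control libraries against 24.87 and 26.97 in the mimic libraries (log2 fold change -0.52, SE 0.12, adjusted p = 0.0621). Nfkb1, which encodes the p105 precursor, had 44.27 and 42.99 TPM in the control libraries against 43.92 and 44.72 TPM in the mimic libraries (log2 fold change -0.04, SE 0.10), and Rela had 25.45 and 25.63 against 24.09 and 28.72 TPM (log2 fold change 0.01, SE 0.10). Relb had a log2 fold change of -0.17 (SE 0.15). None of 5 further IκB family genes passed in edgeR or DESeq2 (1 at an unadjusted p under 0.05), and the log2 fold changes of Nfkbib, Nfkbiz and Bcl3, the highest of them in TPM, were 0.30, 0.03 and -0.04. Among 10 genes of IKK and upstream kinases none passed, 4 had an unadjusted p under 0.05 (3 higher and 1 lower), and 3 passed with edgeR's exact and likelihood-ratio tests and 2 with DESeq2. Over all tested genes 24.8% had an unadjusted p under 0.05 in the quasi-likelihood test. The exact test, the likelihood-ratio test and DESeq2 passed 10.4%, 10.9% and 7.71% of all tested genes. Chuk, which encodes the kinase IKKα, had 43.89 and 67.15 normalized CPM in the control libraries against 88.38 and 83.85 in the mimic libraries (log2 fold change 0.63, SE 0.18, adjusted p = 0.097 in edgeR), with a wide gap between the controls. The log2 fold change of Tab2, an adaptor of the kinase TAK1, was 0.24 (SE 0.09) and that of the kinase gene Tbk1 was 0.07 (SE 0.10). Of 16 other genes that limit NF-κB signaling 13 were tested and none passed in edgeR or DESeq2 (2 at an unadjusted p under 0.05), and Tax1bp1, Itch and Tollip, the highest of them in TPM, had log2 fold changes of 0.11, 0.11 and 0.13.

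Among 24 genes of receptors and adaptors that feed the pathway, 19 were tested, 2 passed and both were lower with the mimic. At an unadjusted p under 0.05, 4 of the 19 were higher and 4 were lower, and the groups did not overlap for 7 higher and 6 lower genes. Over all tested genes 3.57% passed and 24.8% had an unadjusted p under 0.05. The groups did not overlap for 28.9% of all tested genes higher and 29.5% lower. Irak2, a kinase that relays Toll-like receptor signals, fell from 37.74 and 32.46 normalized CPM in the control libraries to 19.54 and 22.7 with the mimic, a log2 fold change of -0.73 (SE 0.13, adjusted p = 0.0353 in edgeR). Tlr5, the receptor of bacterial flagellin, fell from 7.537 and 6.712 normalized CPM to 2.618 and 3.792, a log2 fold change of -1.15 (SE 0.23, adjusted p = 0.046 in edgeR). Both lost the call without mimic replicate 3 (adjusted p = 0.12 and 0.174) and without control replicate 1 (0.0515 and 0.0735). The log2 fold changes of Ltbr, Tnfrsf1a and Irak1, the highest in TPM of this list, were 0.31, -0.09 and 0.03, and none passed. The median of the 19 was 0.03.

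Of 22 other NF-κB targets 14 were tested and 2 passed, 1 in each direction, against 3.57% of all tested genes. Gadd45b, a stress-induced gene, fell from 28.69 and 25.85 normalized CPM in the control libraries to 10.54 and 16.24 with the mimic (log2 fold change -1.02, SE 0.20, adjusted p = 0.0429 in edgeR), and without mimic replicate 3 its adjusted p was 0.0744. Ptgs2, which encodes the cyclooxygenase COX-2, had 2 and 0 counts in the control libraries against 22 and 13 in the mimic libraries, a ratio of the summed counts after scaling of 18.1 with a counting interval of 4.66 to 156 (adjusted p = 0.0471 in edgeR). Ptgs2 met the filter on low counts only through the mimic libraries, where it was high, so its call is not independent of that filter. It lost the call without mimic replicate 3 (0.0866), without control replicate 1 (0.0574) and in the legacy form of the test (0.0537). Junb, a subunit of AP-1, had 54.8 and 45.21 normalized CPM in the control libraries against 26.5 and 36.8 in the mimic libraries (log2 fold change -0.66, adjusted p = 0.0794), and Sod2, a mitochondrial superoxide dismutase, had a log2 fold change of 0.09 (SE 0.11). The inflammatory targets Il1b, Il6, Lcn2, Vcam1 and Saa1 had at most 1 count in any library, but others were detected. Nos2 had 60 and 33 counts in the control libraries against 69 and 180 in the mimic libraries (log2 fold change 1.46, SE 0.43, adjusted p = 0.101 in edgeR). Tnf had 34 and 11 counts against 17 and 15. At an unadjusted p under 0.05 in edgeR, 3 of the 14 were higher and 4 lower, against 24.8% of all tested genes in either direction (13% lower).

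Cell type markers moved beside these values. Of 6 enterocyte markers 1 passed, Anpep, a brush border peptidase, against 3.57% of all tested genes. Anpep fell from 1851 and 1245 normalized CPM in the control libraries to 289 and 411.9 with the mimic (adjusted p = 0.00812 in edgeR). Fabp1 had a log2 fold change of -0.91 (adjusted p = 0.109 in edgeR). It passed in 2 of 13 other settings and had an FDR under 0.05 in the study's own edgeR result. All 6 were below 0, as were 8822 of the 17155 tested genes, but Apoa4, Alpi, Vil1 and Cbr1 overlapped between the groups. Vil1 and Cbr1 had log2 fold changes of -0.09 and -0.01. The summed level of the 6 enterocyte markers was 2277 and 3230 TPM in the control libraries against 1617 and 1563 TPM in the mimic libraries. Fabp1 was the largest part of this sum in each library. Ccl20 and Ccl9 are known from the epithelium over lymphoid follicles, where M cells lie. Of 7 M cell markers 5 were tested, with 4 above 0, 1 below 0 and a median log2 fold change of 0.48. The marker below 0 was Spib, with 58 and 11 counts in the control libraries against 25 and 28 in the mimic libraries (log2 fold change -0.30, SE 0.58). At an unadjusted p under 0.05 in edgeR, 3 of the 5 were higher and 0 lower, against 24.8% of all tested genes in either direction (13% lower). Marcksl1 passed, at 43.97 and 51.77 normalized CPM with the mimic against 30.49 and 29.46 in the control libraries (adjusted p = 0.0319 in edgeR). With 1 library left out, the log2 fold change of Marcksl1 lay between 0.55 and 0.79, but it did not keep its call in every such fit. Pglyrp1 had a log2 fold change of 0.13 (SE 0.16). The defining markers Gp2 and Sox8 were at 0 counts in all 4 libraries. Of 6 Paneth cell markers 5 were tested and none passed in edgeR, with 4 below 0, 1 above 0 and a median log2 fold change of -0.49. Ang4 had 15.94 and 10.68 normalized CPM in the control libraries against 7.025 and 6.096 in the mimic libraries (log2 fold change -1.03, adjusted p = 0.0512), and Mmp7 had a log2 fold change of -0.96 (adjusted p = 0.136), neither with overlap between the groups. Groups lay apart in this way, with the mimic lower, for 29.5% of all tested genes. The sum of the 6 was 1449 and 922.2 TPM in the control libraries against 932.6 and 1208 TPM in the mimic libraries, and Itln1, the highest in TPM and the marker above 0, had a log2 fold change of 0.10 (SE 0.15). Cd68, Pdgfrb and Pecam1, the highest leukocyte, mesenchymal and endothelial markers, had at most 2.04, 0.35 and 0.39 TPM. The part of cell type composition in the difference of Cxcl16 was not tested.

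**Figure D5:**
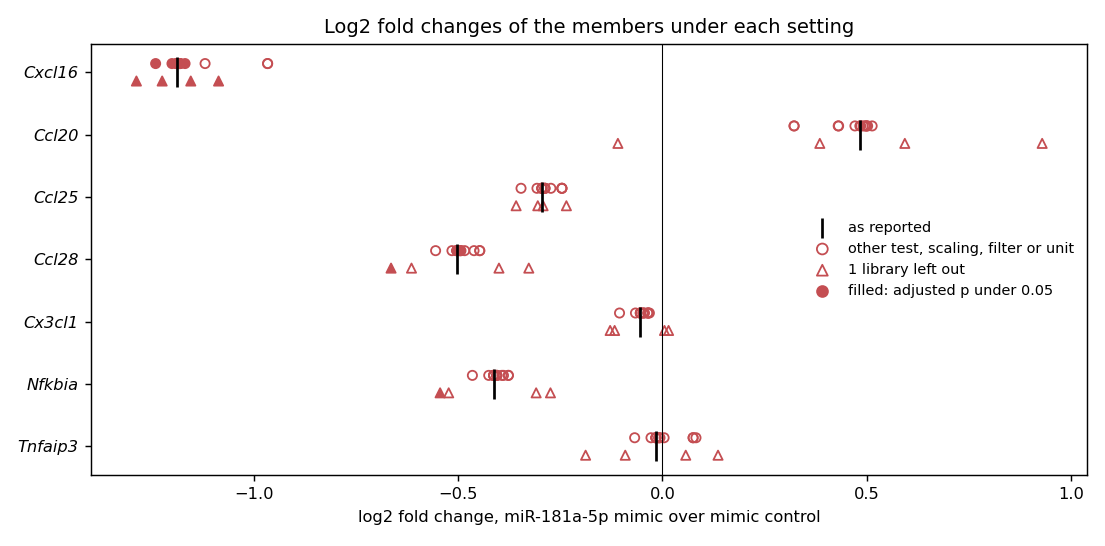
Log2 fold change of the miR-181a-5p mimic over the mimic control (x axis) for the 7 tested genes as reported (black bar), under 13 other tests, scalings, filters or units (circles) and with 1 library left out (triangles), filled where the adjusted p was under 0.05. Cxcl16 stays between -1.29 and -0.97 and is past the threshold in all except the 3 TPM fits, while Tnfaip3, Cx3cl1 and Ccl20 lie on both sides of 0.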

How the data were processed

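RNA-seq of 4 SI organoid libraries was analysed, 2 per group. Per the supplemental methods the authors depleted ribosomal RNA (the labels state poly(A) selection), trimmed reads with Trimmomatic and mapped them with RSEM to GRCm38 transcripts. The authors deposited expected counts, not normalized, and TPM. The annotation release, versions and strand setting are not given in the sources used here. A further 3 columns of each table matched no sample and were not used. The highest-count identifier was used per symbol (55141 of 55487 genes had one). Expected counts were rounded and fitted in R 4.3.3 by edgeR 4.0.16 (a filter by filterByExpr, TMM factors, estimateDisp, glmQLFit without the legacy form, glmQLFTest) with Benjamini-Hochberg adjustment over 17155 genes, so that adjusted p-values are edgeR's unless stated. A standard error is the log2 fold change divided by the root of F. Replicates varied with a common coefficient of 0.13. With 2 against 2 libraries, an exact permutation test cannot go below p = 0.333. Alternatives used DESeq2 1.42.0 and limma 3.58.1 on log2(TPM + 1) and log2(TPM + 0.1), which understate changes of low genes. The fits were tested on counts simulated with a common coefficient of variation for all genes, which gives no error rate for these data. The members, lists and tests were chosen with earlier results of these data known. Named are all 10 genes, list genes with an adjusted p under 0.05, the 3 highest genes in TPM per pathway list and the highest per marker list among those tested. Others (Nfkb2, Elavl1, Zmynd15, Cx3cr1, Ang4, Mmp7, Spib, Apoa4, Alpi, Vil1, Cbr1, Nos2, Tnf and genes named for being at or near 0) were chosen after their values were seen. Protein sequences were not used here.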

Additional observations from a re-analysis of the deposited data

How the results depend on the processing

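No paired analysis was made, because the library titles name no pairs. The replicate numbers were read from the ends of these titles. The legacy form of the quasi-likelihood test was added after the data were seen. When a library was left out, the lone library of its group was assumed to vary like the others. Upper-quartile scaling shifted the median of all genes to -0.06 and the filtered TPM fits to 0.06 (pseudocount 1) and 0.07 (0.1). Genes passing numbered 1788 with the exact test, 1864 with the likelihood-ratio test, 1322 with DESeq2, 192 with no filter on low counts and 75, 27 and 2 in the TPM fits (unfiltered last), against 612. With no filter on low counts Irak2, Tlr5, Gadd45b, Ptgs2 and Marcksl1 lost their calls (adjusted p = 0.0954, 0.0887, 0.107, 0.107 and 0.0872).

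The number of the 10 genes past the test was 2 with edgeR's exact test, its likelihood-ratio test and DESeq2 (Ccl28 joining at log2 fold changes of -0.50, -0.50 and -0.49), and 0 in the 3 TPM fits, where Cxcl16 had -0.97, -1.12 at a pseudocount of 0.1, and -0.97 without a filter (adjusted p = 0.314). With 1 library left out the number was between 1 and 3, the highest without control replicate 2. With the exact test, the likelihood-ratio test and DESeq2, the counts past it were 1, 1 and 1 for Rel family genes (0 as reported), 3, 3 and 2 for kinases (0) and 6, 6 and 5 for other targets (2). For receptors and adaptors (2 as reported) the count was 1 with library totals and 0 with no filter on low counts and in the 3 TPM fits. For other targets it was 0 in these 4 fits, and 1 with at least 10 counts in every library and in the legacy form. With 1 library left out the ranges were 0 to 1 for Rel family genes, 0 to 3 for kinases, 0 to 4 for receptors and adaptors and 1 to 6 for other targets, each highest without control replicate 2, when 2326 genes passed against 612. Why the calls moved was not tested.

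Signs turned only in genes that had not passed. With 1 library left out the log2 fold changes ran from -0.11 to 0.93 for Ccl20, -0.13 to 0.015 for Cx3cl1, -0.19 to 0.14 for Tnfaip3, -0.66 to -0.33 for Ccl28, -0.54 to -0.27 for Nfkbia, -0.27 to 0.22 for Ackr4, 0.00 to 0.12 for Adam17 (lowest -0.004), -0.16 to 0.08 for Bcl3, -0.41 to 0.60 for Ccl6, -0.88 to 0.25 for Ccr9, -0.077 to 0.13 for Irak1, -0.14 to 0.31 for Itln1, -0.05 to 0.085 for Krt19, -0.10 to 0.019 for Nfkb1, -0.29 to 0.46 for Pdgfrb, -0.13 to 0.35 for Pglyrp1, -0.021 to 0.028 for Rela and -0.034 to 0.21 for Sod2. Tnfaip3 had 0.004 with library totals and 0.075, 0.082 and 0.075 in the TPM fits. Ccl6 had 0.005 with the exact and the likelihood-ratio test, 0.018 with DESeq2, 0.004 with library totals, 0.003 in the legacy form and 0.11, 0.18 and 0.11 in the TPM fits. Nfkb1 had 0.022, 0.023 and 0.022 in the TPM fits. With upper-quartile factors Rela had -0.045, Nfkbiz -0.021, Irak1 -0.018, Krt19 -0.031 and Pdgfrb -0.039, and Rela had -0.005 with at least 10 counts in every library.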
